A study of Mus musculus with 13 samples.

Results

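Of 61923 thymic cell barcodes in the split-pool data, 3166 (5.11%) held more than 25000 unique molecular identifiers (UMIs, which count transcripts) and were taken as the deep cells. The choice was made on the UMI count alone, at the level above which the study's own quality filter discarded cells. The thymic lobes came from female C57BL/6N mice aged 2 months. Each lobe was digested on its own, and its cells were fixed before barcoding. The 4 suspensions written here as WT 1 to WT 4 were run in the Parse Evercode WT kit, together with 16 unrelated samples in other first-round wells. A repeat of the set-up in the Parse Mini kit gave the suspensions Mini 1-A, 1-B, 2-A and 2-B. Labels of the WT sublibraries name control and chronic stress material over all 20 samples, and those of the Mini kit name control material.

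The lobes of each kit came from 2 mice, but the labels do not tie lobes to mice. Lobes of 1 mouse are not independent animals, so p-values over the 8 lobes are too small. The deep cells numbered 2423 in the WT kit and 743 in the Mini kit. They were compared with the 11645 cells of 8000 to 25000 UMIs from the same 8 suspensions, called moderate cells below. To remove the effect of depth, every cell of both classes was thinned at random to 8000 UMIs before any expression value was taken.

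The thymus makes T cells in steps. Double-negative (DN) cells lack both coreceptors, carry Il2ra for part of their course, and divide in a burst once the T cell receptor beta chain has rearranged. Double-positive (DP) cells then carry both Cd4 and Cd8, express the recombinase genes Rag1 and Rag2 while they rearrange the alpha chain, and are mostly at rest. Selected cells switch on Cd69 and Cd5 and mature into single-positive (SP) cells with Ccr7. Dividing blasts are larger than resting DP cells and hold more RNA. In split-pool barcoding a cell is named by the wells it passed through in 3 rounds and by its sublibrary, so cells that travel together share 1 name.

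Deep cells made up 4.88% of WT 1, 6.51% of WT 2, 5.24% of WT 3 and 5.82% of WT 4. The Mini shares were 3.17% in Mini 1-A, 4.38% in 1-B, 3.02% in 2-A and 4.37% in 2-B. All 4 WT shares lay above all 4 Mini shares, which describes how the members fall and was not tested. The deep cells had 3.68 to 3.91 mapped reads per UMI in the WT lobes and 2.15 to 2.18 in the Mini lobes. The kits thus also differed in sequencing, and its part in the shares was not tested. The deep cells held 34.9% of all thymic UMIs, from 24.2% in Mini 2-A to 45.2% in WT 2. Their median depth ran from 35455.5 UMIs in Mini 1-A to 40004 in WT 2, against 11935 to 12644.5 in the moderate cells. Most of them, 2265, held 25000 to 50000 UMIs, while 684 held 50000 to 100000 and 217 held more than 100000. The deepest barcode had 930939 UMIs and 19223 genes in Mini 1-B, followed by 828462 UMIs and 14595 genes in WT 2. At the cut itself there was no gap, with cells of 24974 and 24999 UMIs just outside and cells of 25002 and 25003 just inside. Among the 16 other tissue samples the share over 25000 UMIs ran from 0.0849% to 12.7% with a median of 0.570%.

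**Figure D1:**
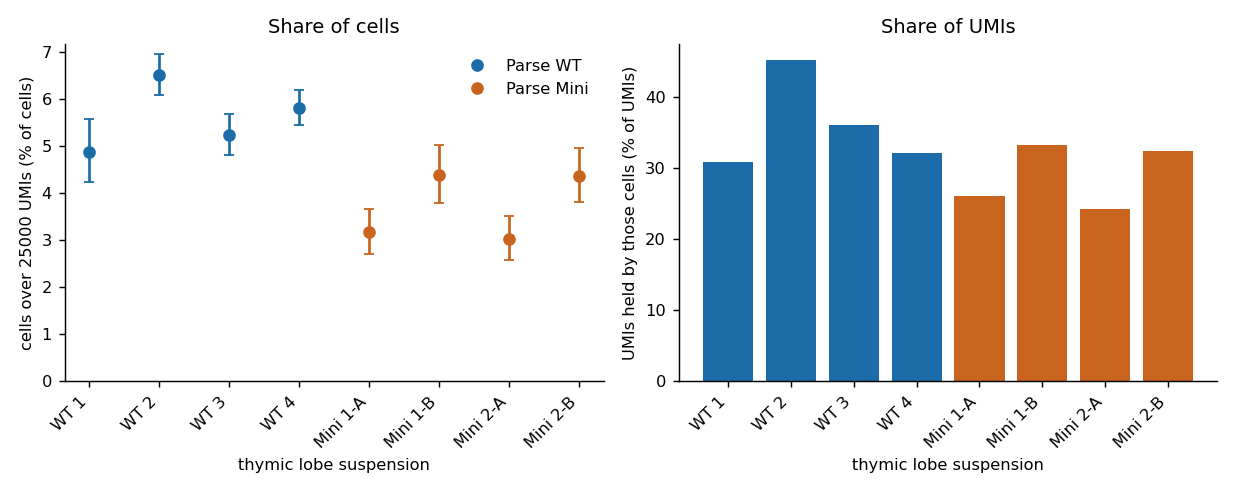
Left, share of cells over 25000 UMIs in each of the 8 thymic suspensions (% of cells, bars are 95% exact binomial intervals for counting error). Right, share of all UMIs held by those cells (% of UMIs). Points and bars are blue for the WT kit and orange for the Mini kit, and the share of cells runs from 3.02% to 6.51%.

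Nearly all cells of both classes carried T cell markers. Of 3166 deep cells, 1 lacked the T cell core, scored as fewer than 3 of the genes Cd3e, Cd3d, Cd3g, Cd247, Trac, Trbc1, Trbc2, Lck, Bcl11b and Themis. Among the moderate cells 62 of 11645 did so. Themis, Bcl11b and Cd247 each had a UMI in at least 99.2% of the moderate cells. A barcode that holds a T cell and a cell of another type has the T cell core too, so the score does not tell single T cells from mixtures. The mean share over lobes was 0.0236% ± 0.0668 (SD, n = 8) against 0.577% ± 0.479, and it was lower in the deep cells in 7 of 8 lobes (exact permutation test by sign flips, two-sided, p = 0.0156, adjusted over 15 measures 0.0260). The single deep cell was in WT 3, and Mini 1-A had none in either class. Without WT 1, WT 3, WT 4, Mini 2-A or Mini 2-B in turn the adjusted p was 0.0521 by the same exact permutation test, and against cells of 16000 to 25000 UMIs it was 0.341. Leaving out a lobe raises the smallest p this test can give. The difference without 1 lobe stayed between -0.633 and -0.435 percentage points, so these losses do not single out lobes. Barcodes with markers of a non-T cell type and no T cell core numbered 55 among the moderate cells and 0 among the deep cells, a count that allows up to 0.0948%. That limit, like all intervals here, covers counting error only.

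Cells at the top of the cycle gene lists were rarer among the deep cells than among the moderate ones. Each cell was scored by the share of its UMIs outside rRNA that fell on 54 genes of G2 and mitosis or on 43 genes of S phase. A cell was called high when it passed the 90th percentile of the moderate cells of its own lobe, which by construction places 10.0% to 10.1% of the moderate cells there. For G2 and mitosis the high share of deep cells was 2.45% in WT 1, 3.57% in WT 2, 1.51% in WT 3 and 2.51% in WT 4. It was 1.91% in Mini 2-A and 1.38% in Mini 2-B, and no deep cell was high in Mini 1-A or 1-B, where a count of 0 allows up to 1.74% and 1.52%. Every lobe lay far below the moderate class.

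The mean was 1.67% ± 1.23 (SD, n = 8) against 10.0% ± 0.0319, lower in 8 of 8 lobes (exact permutation test by sign flips, two-sided, p = 0.0078, the smallest that 8 lobes can give, adjusted 0.0167). For S phase the mean was 2.63% ± 1.68 against 10.0% ± 0.0319, also lower in 8 of 8 lobes with the same exact p and adjusted p. The S phase values ran from 0.461% in Mini 2-B to 5.73% in Mini 2-A. Within each kit the direction held in 4 of 4 lobes, where the smallest p possible is 0.125. In numbers of cells, 70 deep cells were high for G2 and mitosis, 94 for S phase and 4 for both, so that 160 of 3166 were high for either. Fewer high cells were not particular to cycle lists. The high share of deep cells was 2.65% ± 1.29 for DP recombining genes and 2.55% ± 1.10 for DP cells under selection, lower in 8 of 8 lobes for both. It was 5.93% ± 2.92 for mature SP genes (lower in 7), 9.12% ± 3.10 for DN genes (6) and 9.02% ± 2.65 for growth and ribosome biogenesis (4). These other lists were given no test.

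The opposite tail emptied as well. Deep cells below the 10th percentile of the moderate cells made up 1.38% ± 0.914 for G2 and mitosis and 1.67% ± 0.713 for S phase, against 10.0% ± 0.0319 and 10.0% ± 0.0378 (SD, n = 8, lower in 8 of 8 lobes for both, exact permutation p = 0.0078, adjusted 0.0167). Cells that were neither high nor low on either list made up 93.2% ± 2.92 of the deep cells and 65.3% ± 0.901 of the moderate ones. Their lowest share in a lobe was 88.5% in the deep class, above the highest moderate share of 66.4%.

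The narrowing grew with depth. From 8000 to 16000 UMIs, the middle 90% of cells spent 0.167% to 2.06% of their UMIs on G2 and mitosis genes, with a median of 0.698%. Above 100000 UMIs the same range was 0.636% to 1.37% around a median of 1.00%. For S phase the range closed from 0.0433% to 0.867% down to 0.209% to 0.503%, while the median went from 0.252% to 0.329%. Of the 217 deepest cells, 1 was high for G2 and mitosis and 1 for S phase.

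**Figure D2:**
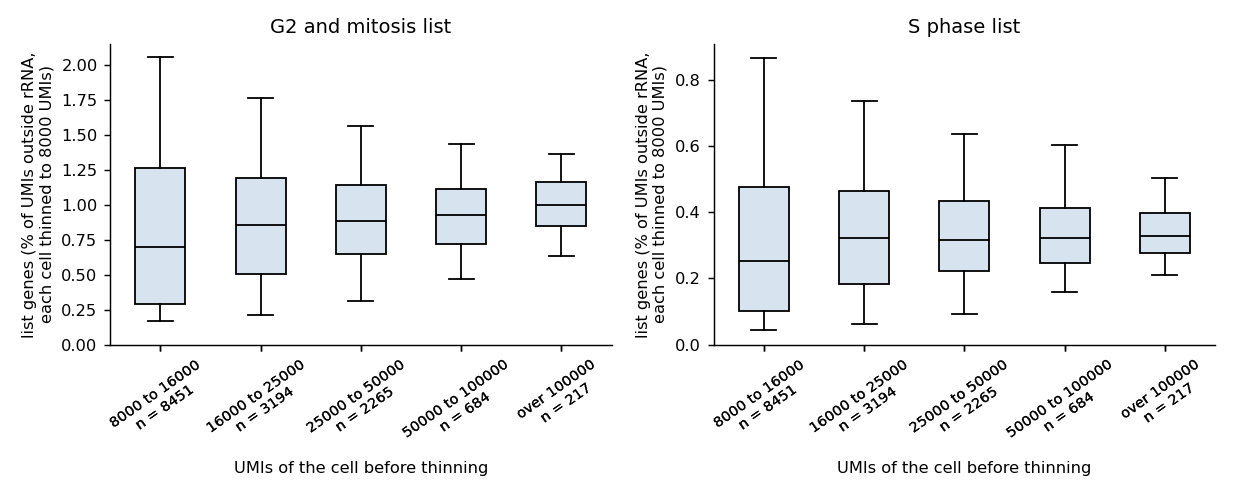
Share of UMIs outside rRNA on G2 and mitosis genes (left) and S phase genes (right), in %, after thinning each cell to 8000 UMIs, by the cell's UMI count before thinning. Boxes span the middle 50% of cells with the median as a line and whiskers the 5th to 95th percentile, pooled over the 8 suspensions. The G2 and mitosis whiskers close from 0.167% to 2.06% in the shallowest class to 0.636% to 1.37% above 100000 UMIs.

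The average level of cycle genes did not fall alongside. In sums per lobe and class, edgeR's quasi-likelihood test with the lobe as block called 1.79% of 11783 genes at an adjusted p under 0.05, 154 higher in the deep cells (1.31%) and 57 lower (0.484%). Without the block of paired lobe sums edgeR called 0 in either direction, with 292 genes at an unadjusted p under 0.05, and DESeq2 with the block called 95 higher and 12 lower, giving an adjusted p to 4701 of the genes. Against cells of 16000 to 25000 UMIs, 36 of the 211 calls were kept in edgeR. Without WT 2 edgeR called 62 and 20, and the lower calls numbered 31 without WT 1 and 32 without Mini 2-B. The changes were small, with a median size of 0.20 on the log2 scale and 13 of the 211 called genes past 0.5.

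Of the 54 G2 and mitosis genes 14 rose, beside 1.31% of all genes tested, none fell, and 53 had a positive log2 difference. Their median was 0.12, beside 0.00 for all genes tested. DESeq2 called 8 of the 14 and gave no adjusted p for Ube2c and Ccnb2, and against cells of 16000 to 25000 UMIs the calls of Hmgb2 and Cenpf, a centromere protein, were the only 2 kept. Without the cells that carried markers of 2 lineages 4 of the 14 were kept, Top2a, Hmgb2, Cenpf and Smc4. The cells removed there were 508 deep and 1742 moderate ones with any of the pairs of lists counted further below. Those pairs include 2 stages of the T lineage. DP recombining with mature SP genes was found in 305 deep and 1100 moderate cells, and T cell core with a non-T list in 225 and 684. With classes set by UMIs outside rRNA 8 of the 14 were kept, in the WT kit alone 7 and in the Mini kit alone 2, Top2a and Hmgb2. Top2a, the topoisomerase that untangles replicated DNA (chromosome 11, 98992943 to 99024189, GRCm38), had 809, 971, 708 and 861 CPM (counts scaled to a common library total) in the deep cells of WT 1 to WT 4 and 752, 793, 745 and 714 in the Mini lobes. The moderate cells had 625, 811, 658 and 830 CPM and 703, 741, 642 and 608 CPM in the same order. The deep value was the higher one in every lobe, although the 2 classes overlapped across lobes (log2 difference 0.17 ± 0.03 SE, edgeR adjusted p = 6.36e-06, and 0.0582 against cells of 16000 to 25000 UMIs).

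Hmgb2, a chromatin protein abundant in dividing cells, rose by a log2 value of 0.28 ± 0.03 SE in 8 of 8 lobes (edgeR adjusted p = 3.12e-08). Ube2c, which helps drive the exit from mitosis, rose by 0.31 ± 0.08 and Ccnb2, a mitotic cyclin, by 0.29 ± 0.07 (edgeR adjusted p = 0.0191 for both). Both of these calls were lost without WT 1 (edgeR adjusted p = 0.0838 and 0.0722) and without WT 2 (0.262 and 0.0962), and that of Ccnb2 also without WT 3 (0.0778) or Mini 2-B (0.0613) and with no thinning (0.0654). Both were lost too in each kit alone, without the cells that carried markers of 2 lineages (0.0899 and 0.237) and by UMIs outside rRNA (0.0757 and 0.438), where Ccnb2 differed by 0.18. Mki67, the proliferation antigen Ki-67, rose by 0.12 ± 0.03 and was higher in 6 of 8 lobes (edgeR adjusted p = 0.0112). That call was lost without WT 1 (adjusted p = 0.0560), WT 2 (0.154) or Mini 2-B (0.0787), in the Mini kit alone (0.737) and without the cells that carried markers of 2 lineages (0.319) in edgeR, against cells of 16000 to 25000 UMIs (0.483), and in DESeq2 (0.110). Of 43 S phase genes 2 rose, beside 1.31% of all genes tested, and 41 had a positive difference, with a median of 0.07. The 2 were Rrm1, a subunit of ribonucleotide reductase, at 0.16 ± 0.04, and the histone chaperone Nasp at 0.14 ± 0.04. Neither was called by DESeq2 (adjusted p = 0.0926 and 0.0971). Of the fits without 1 lobe, the Rrm1 call was kept in edgeR without WT 3 or Mini 1-A and the Nasp call without Mini 1-A or Mini 2-B, and both were kept with no thinning. Both were lost in each kit alone, against cells of 16000 to 25000 UMIs (0.865 and 0.920), without the cells that carried markers of 2 lineages (0.289 and 0.285) and by UMIs outside rRNA (0.521 and 0.272), all in edgeR.

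Some genes of growth rose as well. Of 15 genes of growth and ribosome biogenesis 4 rose, beside 1.31% of all genes tested, and 0 fell, with a median log2 difference of 0.14. The 4 were Ncl, at 0.19 ± 0.02 SE, Npm1, Nop56 and Nolc1, all of the nucleolus, where ribosomes are built. DESeq2 called the same 4. The call of Ncl was lost only without the lobe block and was the 1 kept against cells of 16000 to 25000 UMIs, while that of Npm1 was lost without WT 2 (edgeR adjusted p = 0.128) and that of Nolc1 without WT 1 (0.0506), WT 2 (0.0702) or Mini 2-B (0.0939). By UMIs outside rRNA Npm1 (0.0618) and Nolc1 (0.249) were not called, and without the cells that carried markers of 2 lineages Nolc1 was not (0.184). Myc, which drives growth programmes, had a difference of 0.24 that did not pass (edgeR adjusted p = 0.261).

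The spread between cells was smaller in the deep class for cycle genes and others. The Fano factor, a gene's variance over its mean across the cells of a lobe, is 1 for counting noise alone and rises when cells differ. Top2a had a Fano factor of 2.24 ± 0.365 in the deep cells and 5.36 ± 1.58 in the moderate ones (SD, n = 8), Mki67 had 2.65 ± 0.672 and 6.83 ± 2.30. Il2ra, the IL-2 receptor alpha chain of DN cells, had 2.38 ± 0.551 and 7.30 ± 2.34, though its mean of 0.472 and 0.497 UMIs per cell was nearly alike. The values were lower in the deep cells in 8 of 8 lobes for each.

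Over 4342 genes with enough counts, 1985 (45.7%) had a lower Fano factor in the deep cells in all 8 lobes and 0 had a higher one. With as many moderate as deep cells drawn in each lobe, 1342 of 4288 were lower in all 8 and 1 was higher. Against cells of 16000 to 25000 UMIs, nearer in depth, the count was 499 of 4263 (11.7%), with 0 higher. Among the list genes with enough counts, 33 of 38 G2 and mitosis genes and 24 of 31 S phase genes were lower in all 8 lobes. The same held for all 4 of the genes of DP cells under selection, for 4 of 5 of the DP recombining genes and for 8 of 10 T cell core genes. These counts describe the libraries and carry no test.

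**Figure D3:**
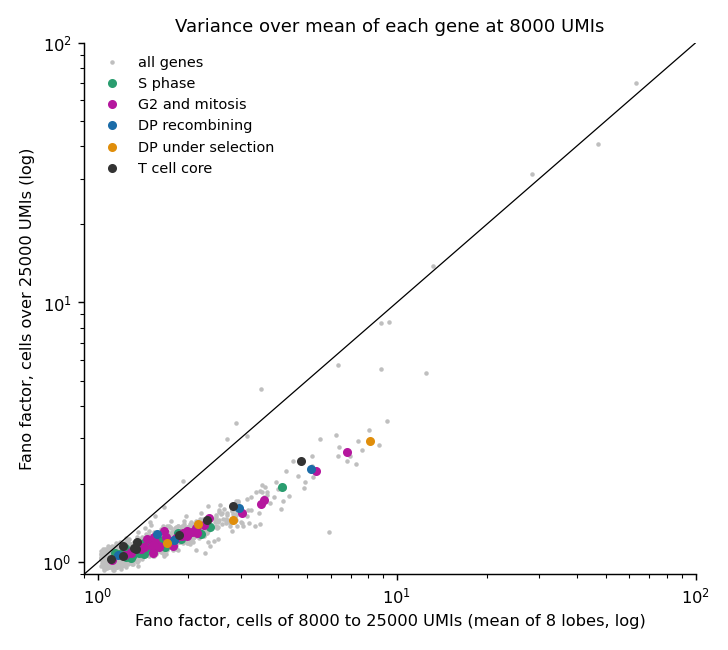
Fano factor (variance over mean) of each of 4342 genes at 8000 UMIs per cell, as the mean over the 8 suspensions, in cells of 8000 to 25000 UMIs (x axis, log scale) and in cells over 25000 UMIs (y axis, log scale). Coloured points are genes of 5 lists and the line marks equality. The medians of the G2 and mitosis genes are 1.25 in the deep and 1.76 in the moderate cells.

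Genes of the DN stage were at close average levels in both classes. The DN list (Il2ra, Ptcra, Notch1, Notch3 and 9 others) took a mean 0.0412% ± 0.00684 of UMIs in the deep cells and 0.0410% ± 0.00498 in the moderate ones (SD, n = 8), higher in 4 lobes and lower in 4. None of its 10 tested genes was called by edgeR, beside 1.79% of all genes tested, so the 0 is not read as a result. DESeq2 called none of the 3 to which it gave an adjusted p. The median log2 difference was -0.02, and 1 gene had an unadjusted p under 0.05. Il2ra was at 89, 57, 58 and 73 CPM in the deep cells of WT 1 to WT 4 and at 84, 64, 69 and 67 CPM in the moderate ones. In the Mini lobes the deep cells had 83, 74, 81 and 89 CPM and the moderate cells 74, 71, 91 and 87. The ranges overlapped throughout (log2 difference -0.02 ± 0.05 SE, edgeR adjusted p = 0.921). Il2ra nevertheless had a UMI in more of the deep cells, 23.0% against 14.7% of the moderate ones, pooled over lobes with no test. This share was lower in the deep cells for Dtx1, Nrarp and Mycn and higher for the other genes of the list.

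Cells above the moderate 90th percentile of the DN list made up 9.12% ± 3.10 of the deep cells, from 6.37% in Mini 2-A to 16.2% in WT 1, and were fewer than in the moderate class in 6 of 8 lobes. Of these 279 deep cells, 15 were also high on a cycle list, a mean of 0.493% ± 0.412 against 1.94% ± 0.345 of the moderate cells. Cells high on a cycle list were fewer among all deep cells too, 160 of 3166 and a mean of 4.17% ± 2.22 against 18.1% ± 0.522. Cells with at least 3 Il2ra UMIs numbered 134 (mean 5.44% ± 2.28) and 593 (5.67% ± 1.03). When such cells also had to be below the 10th percentile of the DP recombining genes, 8 deep cells (0.208% ± 0.258) and 85 moderate cells (0.740% ± 0.181) remained. Cells below that percentile were fewer among all deep cells too, 3.44% ± 1.90 against 10.0% of the moderate ones. No deep cell had at least 2 UMIs of both Il2ra and Ptcra, the surrogate alpha chain of the pre-T cell receptor, and 7 moderate cells did, a mean of 0.0765% ± 0.0659. The 0 of 3166 allows up to 0.0948%, so a difference was not detectable. These classes were set after the values were seen and are given as descriptions.

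Genes of the DP stage were also at close levels. Those of DP recombining cells took 0.592% ± 0.0646 of UMIs in the deep cells and 0.609% ± 0.0816 in the moderate ones (SD, n = 8). Rag1, a subunit of the recombinase, fell by 0.11 on the log2 scale (SE 0.02) and was lower in 8 of 8 lobes (edgeR adjusted p = 0.00181), a call that was lost in the WT kit alone (adjusted p = 0.435) and against cells of 16000 to 25000 UMIs, where it fell by 0.05 (adjusted p = 0.487). Rag1 was the 1 gene called of the 5 in this list, beside 1.79% of all genes tested, and Rag2, Arpp21 and Dntt were not called. Of the coreceptor genes Cd4, Cd8a and Cd8b1 none was called by edgeR or DESeq2, beside 1.79% of all genes tested in edgeR. Their log2 differences were -0.07, -0.01 and 0.04, and 1 had an unadjusted p under 0.05.

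Genes of later stages leaned lower. Of 7 genes of DP cells under selection 2 fell, Cd69 by 0.26 (SE 0.07) and Cd5 by 0.12 (SE 0.03), against 0.484% of all genes tested, and the median log2 difference was -0.08. DESeq2 called neither, with an adjusted p of 0.0524 for Cd5 and none for Cd69, and neither was called against cells of 16000 to 25000 UMIs, without the cells that carried markers of 2 lineages, by UMIs outside rRNA or in either kit alone. The call of Cd69, a mark of recent receptor signals, was lost without any of 6 lobes, those other than Mini 1-A and 2-B, and that of Cd5 without WT 2, Mini 1-B or Mini 2-B. Of 8 genes of mature SP cells 1 fell, beside 0.484% of all genes tested, 7 had a negative difference and the median was -0.14. The one called was Ccr7, the chemokine receptor that leads mature cells to the medulla (log2 difference -0.30 ± 0.06 SE, edgeR adjusted p = 0.00103). Its deep cells had 63, 60, 66 and 68 CPM in WT 1 to WT 4 and 57, 33, 58 and 53 in the Mini lobes, below the moderate cells of the same lobe in all 8. The moderate values were 107, 69, 82 and 78 CPM in the WT lobes and 58, 63, 65 and 60 in the Mini lobes. The call was lost in the Mini kit alone (edgeR adjusted p = 0.255). It was also lost, with smaller differences, against cells of 16000 to 25000 UMIs (-0.18, edgeR adjusted p = 0.409) and by UMIs outside rRNA (-0.20, 0.120). Without the cells that carried markers of 2 lineages the difference was -0.15 (edgeR adjusted p = 0.543). Those cells were picked in part by mature SP genes, Ccr7 among them, so this smaller difference is not read as a result.

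The spread over cells narrowed for the cycle and thymocyte stage lists, among others. The SD of the G2 and mitosis share in the deep cells was 0.566 ± 0.0448 times that in the moderate cells of the same lobe, with a range of 0.496 to 0.620 (SD, n = 8). The ratio was 0.599 ± 0.0602 for S phase, 0.654 ± 0.0619 for the DN list, 0.638 ± 0.0665 for DP recombining genes, 0.587 ± 0.0541 for DP cells under selection and 0.685 ± 0.0970 for mature SP genes. Each of them was below 1 in 8 of 8 lobes. For growth and ribosome biogenesis it was nearer to 1, at 0.827 ± 0.0616. Narrowing was not particular to these lists. The ratio was 0.348 ± 0.162 for dendritic cell genes and 0.519 ± 0.240 for MHC class II, both below 1 in 8 of 8 lobes, 0.584 ± 0.386 for macrophage genes (6 lobes), 0.711 ± 0.197 for plasmacytoid dendritic cell genes (7) and 0.705 ± 0.0469 for T cell core (8). It was 0.855 ± 0.562 for B cell genes (6), 0.986 ± 0.491 for mesenchyme (4), 1.04 ± 0.173 for erythroid (3) and 1.20 ± 0.758 for thymic epithelium genes (3). The neutrophil ratio ran from 0 to 5.22 over lobes, the highest in Mini 2-B, and was below 1 in 5.

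The whole profile followed. The distance of a cell from its lobe was taken as the chi-square of its counts against the mean profile of the moderate cells, per degree of freedom, so that counting noise alone gives 1. Its median over the deep cells was 1.33, 1.30, 1.34 and 1.20 in WT 1 to WT 4 and 1.15, 1.46, 1.22 and 1.26 in the Mini lobes. The moderate cells had 1.76, 1.50, 1.59 and 1.42, and then 1.36, 1.71, 1.46 and 1.59. Deep cells were the nearer ones in 8 of 8 lobes, and pooled medians fell through the depth classes from 1.56 to 1.39, 1.30, 1.24 and 1.21. Against the profile of the cell's own first-round well the means were 1.15 and 1.43, still lower in 8 of 8. This measure was chosen after the data were seen.

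**Figure D4:**
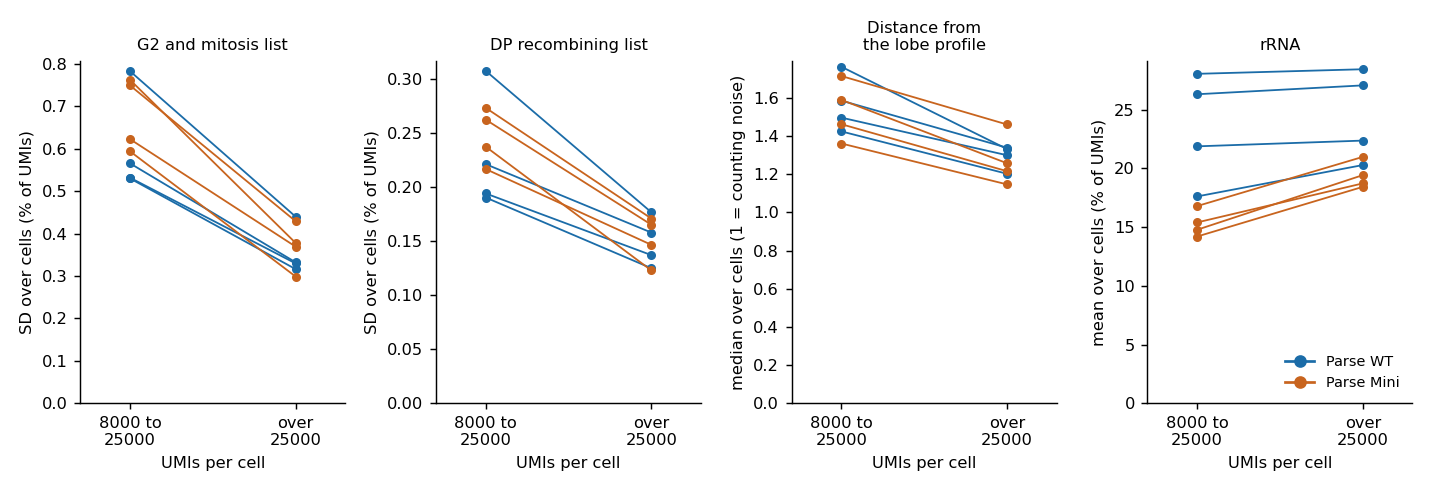
Each line joins the moderate cells (8000 to 25000 UMIs, left) and the deep cells (over 25000 UMIs, right) of 1 suspension, blue for WT and orange for Mini. From left to right the panels give the SD over cells of the G2 and mitosis share and of the DP recombining share (% of UMIs outside rRNA), the median distance from the lobe profile (1 is counting noise) and the mean rRNA share (% of UMIs). The first 3 measures drop and rRNA rises in all 8 suspensions.

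Deep cells that mixed lineages were counted from barcodes with at least 3 genes of each of 2 lists. T cell core with any of 9 non-T lists was found in 225 of 3166 deep cells and 684 of 11645 moderate ones. The share of deep cells was 5.88%, 7.87%, 8.88% and 7.07% in WT 1 to WT 4 and 3.49%, 8.12%, 4.46% and 5.07% in the Mini lobes. The moderate shares were 6.30%, 8.52%, 5.99% and 6.55% in the WT lobes and 3.90%, 2.96%, 2.65% and 1.74% in the Mini lobes. The classes overlapped. Means were 6.36% ± 1.93 and 4.83% ± 2.35 (SD, n = 8), higher in 5 of 8 lobes, and the difference did not pass (exact permutation test, two-sided, p = 0.102, adjusted 0.127). The kits did not differ in it beyond the spread of lobes (exact permutation of kit labels, p = 0.229, adjusted 0.571).

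Most of these pairs involved the B cell list, with 140 deep cells. Ighm, the IgM heavy chain gene and 1 of its 12 genes, had a UMI in 36.1% of deep and 36.3% of moderate cells at the same 8000 UMIs. The source of these UMIs was not tested. B cell pairs took 3.61% ± 1.86 of deep and 3.29% ± 2.18 of moderate cells, higher in 4 of 8 lobes. Dendritic cell pairs, in 29 deep cells, took 1.03% ± 0.521 and 0.759% ± 0.142, higher in 5. Plasmacytoid dendritic cell pairs, in 25 deep cells, took 0.617% ± 0.330 and 0.416% ± 0.226, higher in 7. Of that list Tcf4 had a UMI in 61.6% of deep and 59.6% of moderate cells and Pacsin1 in 25.7% and 25.3%. Macrophage and monocyte pairs, in 24 deep cells, took 0.822% ± 0.783 and 0.277% ± 0.237, higher in 6 lobes and lower in 1. Neutrophil pairs were found in 9 deep and 23 moderate cells and endothelial pairs in 8 and 18. Pecam1, of the endothelial list, had a UMI in 89.2% of deep and 86.6% of moderate cells. Erythroid and thymic epithelial lists paired in 2 deep cells each, with 1 and 3 moderate cells, and mesenchyme in 1 and 3. These single pairs were given no test. At least 2 non-T lists together were found in 13 deep and 42 moderate cells (0.323% ± 0.406 and 0.348% ± 0.140, exact permutation p = 0.867).

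Stages that do not normally share a cell were paired as well. DN stage with mature SP genes was found in 66 deep cells (2.65% ± 1.62) and 141 moderate ones (1.35% ± 0.275), higher in 7 of 8 lobes (exact permutation test, two-sided, p = 0.0312, adjusted 0.0469). The deep shares were 2.94%, 1.23%, 1.70% and 1.82% in WT 1 to WT 4 and 2.33%, 1.02%, 5.10% and 5.07% in the Mini lobes. Only Mini 1-B was lower than its moderate cells. Leaving out any lobe other than Mini 1-B took the adjusted p to 0.0639 or 0.0938. A test over fewer lobes cannot give as small a p, and the difference stayed between 0.943 and 1.57 percentage points. Thinning to 4000 UMIs left 0.0296 percentage points (exact permutation test, adjusted p = 0.805). The call was also lost against cells of 16000 to 25000 UMIs, where 4 lobes were higher and 4 lower (0.978 percentage points, exact permutation test, adjusted p = 0.305), and with at least 4 genes of each list (0.163, adjusted 0.435). DP recombining with mature SP genes did not differ past the threshold, at 10.7% ± 2.92 and 10.1% ± 1.38 (exact permutation p = 0.578, adjusted 0.619). With at least 2 genes of each list the difference was 4.27 percentage points, higher in 8 of 8 lobes, and it passed (exact permutation test, adjusted p = 0.0130), while with at least 4 it was -0.104.

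A few genes of antigen-presenting cells were called lower in the deep cells by edgeR. Of 5 genes of MHC class II 2 fell, beside 0.484% of all genes tested, Cd74 by 0.44 (SE 0.12) and H2-Eb1 by 0.55 (SE 0.15), and all 5 had a negative log2 difference, with a median of -0.32. Of 4 tested dendritic cell genes 1 fell, Wdfy4, needed for cross-presentation, by 0.68 (SE 0.09, edgeR adjusted p = 3.83e-07). These 3 falls were uneven over lobes, with Cd74 lower in 3 of 8, H2-Eb1 in 5 and Wdfy4 in 6, and DESeq2 gave Wdfy4 an adjusted p of 0.118 and the other 2 none. The share of cells with a UMI went the other way for Wdfy4 (14.0% of deep and 11.6% of moderate cells) and for all 5 MHC class II genes. It was 8.34% of deep and 7.45% of moderate cells for Cd74, 5.24% and 3.79% for H2-Eb1, 5.72% and 3.98% for H2-Ab1, 4.07% and 3.14% for H2-Aa and 4.49% and 3.75% for Ciita, pooled over lobes with no test. In the Mini kit alone the differences of Cd74 and H2-Eb1 turned to 0.11 and 0.11. Without WT 4 they were -0.18 and -0.23 (edgeR adjusted p = 0.590 and 0.635), and both calls were also lost without WT 1 or WT 2, against cells of 16000 to 25000 UMIs and with no thinning, and that of H2-Eb1 without Mini 1-B, without the cells that carried markers of 2 lineages and by UMIs outside rRNA. None of the 10 tested B cell genes, 6 macrophage genes and 2 neutrophil genes was called by edgeR, beside 1.79% of all genes tested. At an unadjusted p under 0.05 there were 3, 1 and 1. DESeq2 gave an adjusted p to 1 of these genes and did not call it. The neutrophil, erythroid, epithelial, mesenchymal and endothelial lists had 0 to 2 genes that passed the filter on low counts.

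Receptor genes were counted next, since a T cell usually expresses 1 rearranged beta chain V gene (Trbv). At 8000 UMIs the number of Trbv genes with a UMI was 0.572 ± 0.0549 in the deep and 0.593 ± 0.0790 in the moderate cells (SD, n = 8), higher in 2 lobes (exact permutation p = 0.148, adjusted 0.171). With so few Trbv UMIs per thinned cell a second receptor would seldom be seen, so this test does not tell single T cells from mixtures. Without thinning, which the choice of members bears on directly, the number followed depth. The median rose from 1 Trbv gene in moderate cells to 2 from 25000 to 50000 UMIs, 4 from 50000 to 100000 and 6 above. At least 3 Trbv genes with 3 or more UMIs each were found in 24 of the 217 cells over 100000 UMIs (11.1%) and in 0 of the cells of 8000 to 100000 UMIs. Few of the latter could reach this class, since 0, 3, 43 and 95 cells of the 4 shallower depth classes had even 8 Trbv UMIs, against 143 above 100000, so the 0 is not read as a difference. The deepest barcode had 15 such genes.

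Deep barcodes also stood beside more barcodes in the pooling scheme. In each sublibrary, other barcodes with the same wells in the later rounds but a different first-round well were counted, whatever their tissue. The mean was 2.39 per deep cell and 1.72 per moderate cell, higher in 8 of 8 lobes and in 18 of 20 first-round wells. By depth it stayed between 2.14 and 2.43 in the WT kit up to 50000 UMIs, then reached 3.57 and, above 100000, 7.29. In the Mini kit it was 1.18 to 1.42 up to 50000, then 2.24 and 6.56. Those next to WT cells over 100000 UMIs had a median of 1748 UMIs, against 2905 next to moderate cells, and in the Mini kit 1062.5 against 2444. The medians next to moderate cells left out all moderate thymic cells, while those next to the deepest left out only thymic cells over 100000 UMIs. The 2 sets were thus cut differently and are not directly comparable.

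The same 3 wells were also seen in another sublibrary more often. Libraries shared such well triplets for 39.5% of deep and 32.1% of moderate cells (means of 8 lobes), higher in 8 of 8 lobes and 19 of 20 wells. The deep share was 60.8% in the WT kit, which has 9 sublibraries, and 24.4% in the Mini kit, which has 2. It reached 84.3% and 35.9% above 100000 UMIs, from 49.2% and 11.9% under 2000. These measures were chosen after the data were seen and are descriptions.

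**Figure D5:**
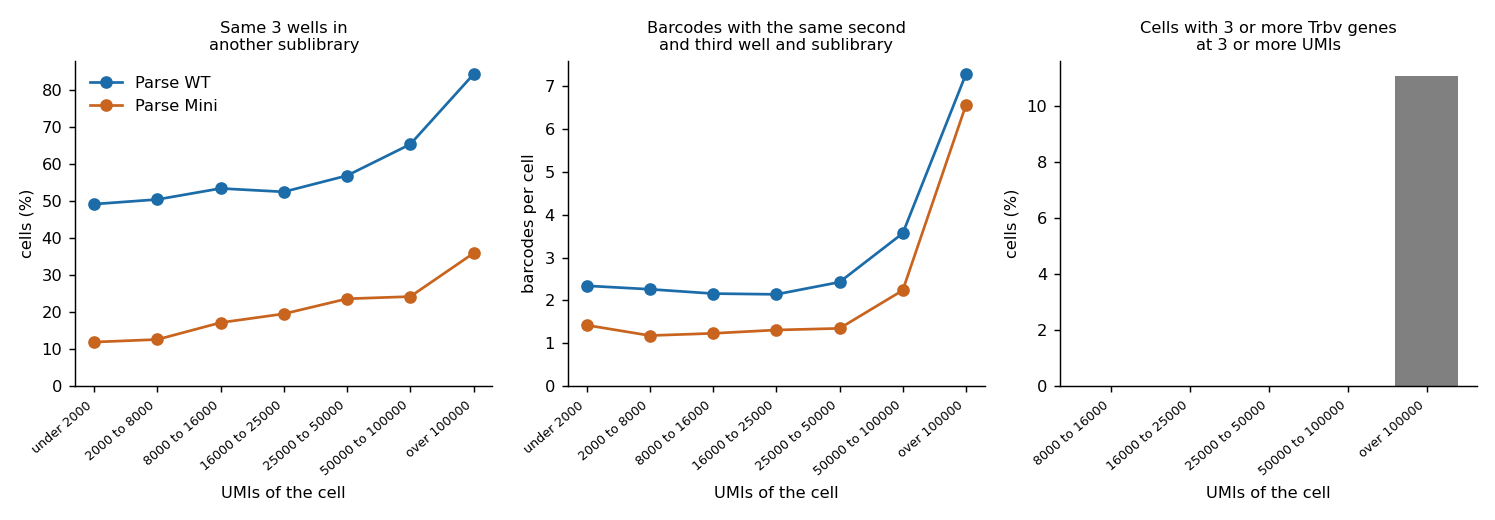
Barcode and receptor counts by the cell's UMI count, without thinning, for thymic cells. Left, cells (%) whose 3 wells recur in another sublibrary, middle, the mean number of other barcodes with the same later-round wells and sublibrary, both by kit (blue WT, orange Mini), and right, cells (%) with at least 3 Trbv genes at 3 or more UMIs. The middle curves reach 7.29 and 6.56 above 100000 UMIs, and the right bar is 11.1% there and 0 below, where few cells hold enough Trbv UMIs to count.

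Ribosomal and mitochondrial RNA moved with depth. The rRNA share of UMIs was 20.3%, 28.4%, 27.1% and 22.4% in the deep cells of WT 1 to WT 4, against 17.6%, 28.1%, 26.3% and 21.9% in the moderate cells. In the Mini lobes it was 18.7%, 18.4%, 19.4% and 20.98% against 15.4%, 14.2%, 14.8% and 16.8%. The deep cells were higher in 8 of 8 lobes (22.0% ± 3.81 and 19.4% ± 5.39, SD, exact permutation p = 0.0078, adjusted 0.0167). The UMI count that set the classes includes rRNA. More rRNA by itself carries a cell over the cut, so the outcome of this test was partly fixed by the choice of cells. The mean difference was 1.08 percentage points in the WT kit and 4.10 in the Mini kit (exact permutation of kit labels, p = 0.0286, the smallest possible, adjusted 0.214). With the classes set by UMIs outside rRNA, 2009 cells were deep and 9339 moderate, and edgeR called 143 genes higher and 25 lower. The part of rRNA in the other results was not tested.

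Outside rRNA, mitochondrial transcripts took 0.311% ± 0.0436 and 0.266% ± 0.0470 of UMIs and ribosomal protein transcripts 0.548% ± 0.219 and 0.484% ± 0.193 (SD, n = 8). Both were higher in the deep cells in 8 of 8 lobes (exact permutation p = 0.0078, adjusted 0.0167). Of 79 tested ribosomal protein genes 30 rose and 0 fell, and all 7 tested mitochondrial genes rose, beside 1.31% of all genes tested. DESeq2 called 18 and 6 of them, 7 and 3 were kept against cells of 16000 to 25000 UMIs, and both families were chosen after the values were seen. Genes detected per cell at 8000 UMIs were 2891 ± 165 and 2837 ± 181, higher in 7 of 8 lobes (exact permutation p = 0.0156, adjusted 0.0260). The difference was 5.43 genes against cells of 16000 to 25000 UMIs (adjusted p = 0.703 by exact permutation) and 2.79 at 4000 UMIs (0.805). Without WT 1, WT 3, WT 4, Mini 1-A or Mini 2-B it did not pass (0.0521). Leaving out a lobe raises the smallest p this test can give, and the difference stayed between 45.6 and 62.5 genes. These losses therefore do not single out lobes.

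The largest rises among genes higher in all 8 lobes and at 20 CPM or more in 1 class were led by Il31ra. This gene, the IL-31 receptor, had 100, 874, 228 and 701 CPM in the deep cells of WT 1 to WT 4 and 130, 136, 347 and 176 in the Mini lobes. The moderate cells had 68, 596, 182 and 624, and 82, 78, 213 and 74 CPM. Each lobe was higher in its deep cells (log2 difference 0.48 ± 0.05 SE, edgeR adjusted p = 2.81e-09), and the lobes differed by far more than the classes. Rpph1, the RNA of RNase P (chromosome 14, 50807449 to 50807767), rose by 0.43 ± 0.05 and Ccnb1ip1 by 0.42 ± 0.05. Rpph1 lies on the same strand within the span of Ccnb1ip1 (50789248 to 50807732) apart from a stretch at its 5′ end, so their reads may not be told apart. The others of the 10 largest rises were Rpl35, Rps26, Gm15564, Gm19951, Rpl39, Ube2c and mt-Nd6, between 0.29 and 0.40. The calls of Rpl35 and Rpl39 were lost without WT 2 (edgeR adjusted p = 0.105 and 0.289) and that of mt-Nd6 without WT 3 (0.0560). Against cells of 16000 to 25000 UMIs those of Rpl35, Rpl39, Ube2c and mt-Nd6 were lost.

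The 10 largest falls by the same rule ran from -0.40 to -0.13. They included Gvin-ps7, Ddx60, an antiviral helicase, Gnb4, Ccr7, Sorl1, Skil, Pde4b, Ipcef1 and Maml2, a Notch coactivator. Ddx60 fell by 0.34 (SE 0.07), and it was not called within either kit alone. Against cells of 16000 to 25000 UMIs the call of Gvin-ps7 was kept and those of the other 8 genes named were lost. Without the cells that carried markers of 2 lineages only Gvin-ps7 and Pde4b of these 9 were still called, though Ccr7 is among the genes by which those cells were picked. By UMIs outside rRNA both of these were lost (-0.25 and -0.12, edgeR adjusted p = 0.187 and 0.193), with Ddx60, Gnb4, Ccr7 and Sorl1, and Skil, Ipcef1 and Maml2 were kept. In the WT kit alone Ccr7 and Maml2 were called, and in the Mini kit alone Gvin-ps7. Single lobes also ended calls, of Gnb4 without WT 1 (edgeR adjusted p = 0.0529), WT 2 (0.231) or Mini 1-B (0.0763), of Sorl1 without WT 3 (0.0854) or WT 4 (0.0636), of Skil without WT 4 (0.0688), and of Ipcef1 without WT 2 (0.0700), WT 3 (0.0641) or Mini 2-B (0.0509).

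Of the 10 T cell core genes, Cd247, the zeta chain of the receptor complex, was the 1 called, beside 1.79% of all genes tested. It fell by 0.07 (SE 0.02) in 8 of 8 lobes (edgeR adjusted p = 0.0348, DESeq2 0.0372). That call was lost without WT 1 (edgeR adjusted p = 0.0532), WT 2 (0.130), Mini 1-A (0.0610), Mini 1-B (0.120) or Mini 2-B (0.108), against cells of 16000 to 25000 UMIs (0.765), without the cells that carried markers of 2 lineages (0.0579), by UMIs outside rRNA (0.174), with no thinning (0.131) and in either kit alone. The T cell genes Cd3d, Cd3g and Themis and the nuclear RNA Malat1 differed by -0.02, 0.02, -0.01 and -0.04 on the log2 scale and were not called, although Malat1 passed as lower with no filter on low counts (-0.08, edgeR adjusted p = 6.64e-08). Tox, a regulator of selected DP cells, differed by -0.07 and did not pass (edgeR adjusted p = 0.0539). It passed as lower without WT 4 (edgeR adjusted p = 0.0420) or Mini 1-A (0.0472), with no thinning (0.0242) and with no filter (2.51e-07).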

How the data were processed

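UMIs per cell and gene were deposited as raw counts, made by the authors with split-pipe for each sublibrary against an mm10 index and combined per kit. Cells were called before deposit. The sources used here give neither its version nor the annotation release. Lobes were read from the deposited cell tables, whose UMI totals equalled the matrix sums in every cell. Gene positions are from GENCODE M21 (GRCm38). The 10x data were not analysed here, no doublet caller was run, and the tables do not mark doublets.

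Members and gene lists were chosen with earlier results of these data known. Cells were thinned at random to 8000 UMIs. Sums per lobe and class entered edgeR 4.0.16 (TMM, filterByExpr, quasi-likelihood test, Benjamini-Hochberg, adjusted p 0.05, lobe as block) without the 3 rRNA genes Rn18s-rs5, mt-Rnr1 and mt-Rnr2. DESeq2 1.42.0, which withholds an adjusted p from many low genes, was an alternative. The fit and the measures of spread were tested on simulated data. Single values were tested by exact sign flips over 8 lobes. The 2 classes of a lobe come from 1 suspension, which pairs them, and their deviations correlated at 0.171 to 0.711. Named genes were all list genes, genes the study names, and the 10 largest rises and falls at an adjusted p under 0.05, in 1 direction in all 8 lobes and at 20 CPM or more in 1 class. The Fano factor used genes with at least 0.2 UMIs per cell in every lobe and class, the distance genes with at least 1. UMIs per lobe ranged from 28057164 to 124106974. Alternatives were another tool, filter, depth, comparison class and sample set. Some genes of the lists and of the naming rule are not reported here.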

Additional observations from a re-analysis of the deposited data

Results flagged for a closer look

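Within each kit, the highest and lowest lobe of each measure was compared with the rest by its gap over the group's range. Of 58 groups of 4 lobes, 5 held a lobe that stood apart, and chance alone marks about 1 group in 20. WT 2 had the highest lncRNA share in its moderate cells, 5.64% of UMIs. WT 1 had the most genes per cell in its kit in both classes, 2988 in the deep and 2874 in the moderate cells. WT 3 held the single deep cell without T cell core, a share of 0.189%, and Mini 1-B was the only Mini lobe whose deep cells carried 2 or more non-T lists, at 1.02% (2 cells). In both of these the other 3 lobes were at 0, so any cell at all would have stood apart.

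The difference between deep and moderate cells was smaller in the WT kit than in the Mini kit for 10 of 11783 genes and larger for 0 (edgeR interaction test, adjusted p under 0.05, with 578 genes at an unadjusted p under 0.05). Gm15564 differed between kits by -0.56 on the log2 scale, from 0.13 in WT to 0.69 in Mini. For Rpph1 the kits differed by -0.52, from 0.25 to 0.77, for Ccnb1ip1 by -0.49, from 0.23 to 0.72, and for Il31ra by -0.48, from 0.36 to 0.84. The rest of the 10 were Cdk8, mt-Co1, Cmss1, Scarna2, mt-Nd5 and mt-Cytb. Cdk8 was at 48135 CPM in the deep and 41142 in the moderate cells, and Cmss1 at 29323 and 27176. Whether UMIs at such levels come from the mRNA of these 2 genes was not tested.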

How the results depend on the processing

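All differences here are deep minus moderate cells. The 4 tail shares of the cycle lists, rRNA, mitochondrial and ribosomal protein shares kept direction and side of the threshold at 4000 UMIs, against 16000 to 25000 UMIs and without each lobe in turn. edgeR's counts of genes higher and lower moved from 154 and 57 to 95 and 12 with DESeq2, 95 and 294 with no filter, 52 and 13 in WT alone, 75 and 17 in Mini alone, 32 and 7 against 16000 to 25000 UMIs, 460 and 171 with no thinning, 97 and 12 without cells of 2 lineages, and 25 lower by UMIs outside rRNA. Without the replicate block, which drops the pairing by lobe, both counts were 0. Without 1 lobe they ran from 62 to 158 and from 20 to 61. The pairing was part of the design, and the cause of the other changes was not tested.

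At 4000 UMIs the difference was 2.79 genes per cell, 0.0117 Trbv genes, 0.0296 percentage points for DN with mature SP genes and -0.338 for DP recombining with mature SP genes. Against 16000 to 25000 UMIs it was 5.43 genes per cell, 0.978 for DN with mature SP, -0.0570 for DP recombining with mature SP, 0.0886 for 2 or more non-T lists and -0.231 for T cell core absent. With 2 genes of a list, 2 or more non-T lists differed by 0.917 and DP recombining with mature SP by 4.27, which passed (exact permutation, adjusted p = 0.0130), and with 4 genes by -0.0930 and -0.104, with 0.163 for DN with mature SP.

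Without 1 lobe, lncRNA ranged from 0.0658 to 0.116, genes per cell from 45.6 to 62.5, 2 or more non-T lists from -0.133 to 0.0314, DN with mature SP from 0.943 to 1.57, DP recombining with mature SP from -0.113 to 1.14 and T cell core absent from -0.633 to -0.435. The distance differed by -0.188 at 4000 UMIs and -0.115 against 16000 to 25000 UMIs, where 499 of 4263 genes had a lower Fano factor in all lobes.

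Of genes, Cd3d turned to 0.0399 with no thinning and 0.0180 by UMIs outside rRNA (-0.0424 to 0.0137 without 1 lobe). Cd3g turned to -0.0185 with no filter and -0.0213 in WT alone (-0.00226 to 0.0341). Malat1 was 0.00422 in Mini alone, and Themis 0.00652 in WT alone, 0.0239 against 16000 to 25000 UMIs and 0.000473 by UMIs outside rRNA. Il2ra was 0.0227 in Mini alone (-0.0659 to 0.0128 without 1 lobe), and Cd4 0.00187 against 16000 to 25000 UMIs. Cd8a was 0.0158 in Mini alone, 0.00715 against 16000 to 25000 UMIs, 0.00951 with no thinning and 0.0220 by UMIs outside rRNA (-0.0198 to 0.00264 without 1 lobe). H2-Eb1 and Cd74 turned to 0.11 and 0.11 in Mini alone.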
